A study of Mus musculus with 70 samples.

Results

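Lazy Piggy medulloblastomas with high levels of Purkinje cell and oligodendrocyte markers were set against those with almost none. Medulloblastoma is a childhood tumour of the cerebellum, and the Sonic hedgehog (SHH) type grows from granule neuron progenitors. The 40 tumours described here are 40 of the 59 Lazy Piggy tumours that carry a treatment label, in a series of 70 mouse tumours. Each tumour was scored by its summed CPM, a gene's share of the library's counts scaled to 1000000 counts, of Pcp2 and Calb1, which mark Purkinje cells, and of Mog and Mobp, which mark oligodendrocytes. Tumours were ranked by this score within each treatment group. The 10 highest of each treatment group are called cerebellum-rich (20 tumours) and the 10 lowest cerebellum-poor (20 tumours), and the other 19 tumours lie between the ends.

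All of these tumours share 1 genotype. It holds a Ptch1 mutation, which leaves Hedgehog signalling on, a Nestin-driven luciferase and SB100 transposase, Nestin-Cre, and a Rosa26 lox-stop-lox PBERT2 allele. PBERT2 is a tamoxifen-dependent piggyBac transposase, and Lazy Piggy is a transposon that both enzymes can move. The Nestin promoter is active in neural progenitors. The contrast is therefore between tumours of the same genotype. The cerebellum-rich end held 10 TAM+ and 10 TAM- tumours, as did the cerebellum-poor end, where TAM+ tumours received tamoxifen and TAM- tumours did not. Age, dose and the share of tumour cells in each sample are not in the labels. Whether each tumour is from its own mouse is not stated, so a p-value here speaks of library-to-library spread only.

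The cerebellar cortex is built from few cell types. Purkinje cells are its large inhibitory output neurons. Molecular layer and Golgi interneurons use GABA or glycine. Granule neurons are small excitatory cells that arise from Atoh1-positive progenitors, which divide in response to SHH. Bergmann glia are the astrocytes beside the Purkinje cells, and oligodendrocytes wrap axons in myelin. SHH medulloblastoma cells keep the progenitor programme, so genes of mature cerebellum and genes of the cell cycle can be read side by side in 1 bulk sample. In such bulk samples fewer cells of a type and less RNA per cell cannot be told apart.

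The 4 score genes chose the groups, so their levels are a description and were not tested. The score ran from 173.5 to 1937 CPM (median 403 CPM) in cerebellum-rich TAM+ tumours, and from 0.248 to 13.8 CPM (median 2.71 CPM) in cerebellum-poor TAM+ tumours. In TAM- tumours it ran from 18.4 to 317 CPM (median 110.2 CPM) at the rich end and from 0 to 0.777 CPM (median 0.273 CPM) at the poor end. The ends are therefore ends within a treatment group and not fixed levels: 8 of the 9 TAM+ tumours between the ends scored above the lowest cerebellum-rich TAM- tumour. The lowest cerebellum-rich TAM+ tumour had 173.5 CPM and the next one, left out, 141.6 CPM. The highest cerebellum-poor TAM+ tumour had 13.8 CPM and the next one 18.1 CPM. In TAM- tumours these border values were 18.4 against 13.4 CPM at the rich end, and 0.777 against 1.08 CPM at the poor end. Pcp2 was counted in all 20 cerebellum-rich tumours (1.81 to 209 CPM), while 14 of 20 cerebellum-poor tumours had no Pcp2 read.

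**Figure D1:**
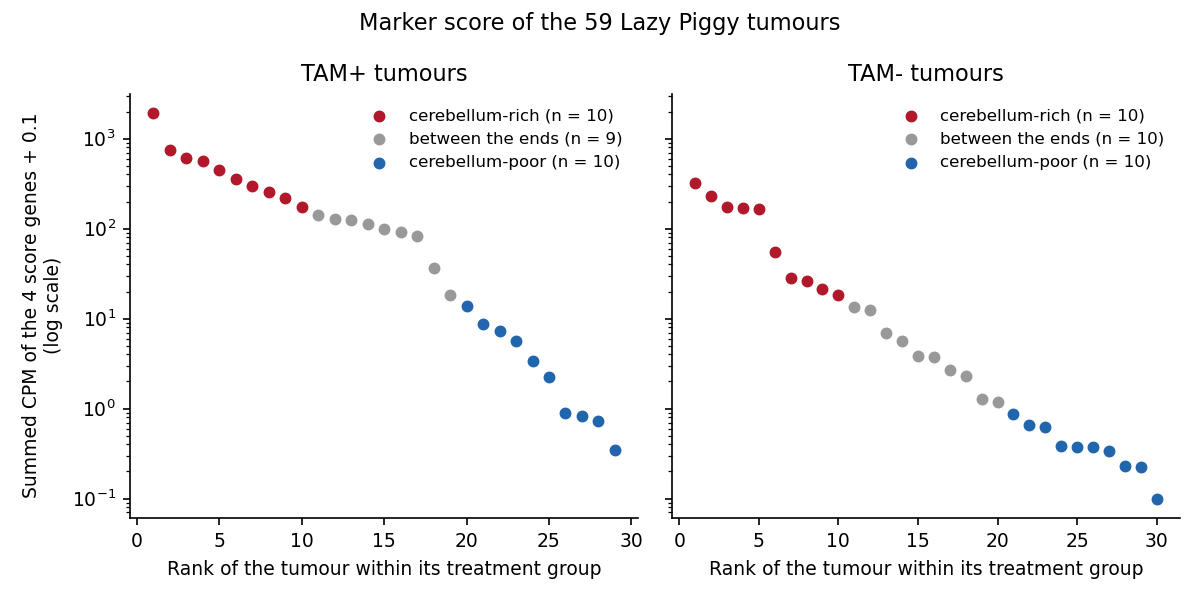
Marker score of each of the 59 labelled Lazy Piggy tumours (summed CPM of the 4 score genes plus 0.1, log axis) by rank within TAM+ and within TAM-. The lowest cerebellum-rich and the highest cerebellum-poor tumour lie at 173.5 and 13.8 CPM in TAM+, and at 18.4 and 0.777 CPM in TAM-.

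Other measures of the libraries were set beside the split. Total counts ran from 6256214 to 8464949 in cerebellum-rich and from 6691243 to 8470896 in cerebellum-poor libraries, and the difference in means had p = 0.983 (two-sided permutation test within treatment groups, 100000 draws). Cerebellum-rich libraries had counts for more genes, with a median of 18549 genes against 18121 in cerebellum-poor libraries (permutation p = 1e-05, the smallest these draws can give, 4e-05 adjusted over 4 measures). The 50 highest genes took 7.75% of counts at the rich end and 8.24% at the poor end (medians, permutation p = 0.0122, 0.0243 adjusted). Males made up 10 of 20 cerebellum-rich and 12 of 20 cerebellum-poor tumours, and tumours with the earlier of the dated titles made up 11 of 20 cerebellum-rich and 8 of 20 cerebellum-poor tumours, without a difference past the threshold (Fisher's exact p = 0.751 and 0.527).

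Cerebellum-rich tumours differed from cerebellum-poor tumours in 3691 of 14197 genes tested, which is 26% (edgeR's quasi-likelihood test, treatment as covariate, Benjamini-Hochberg adjusted p under 0.05). Of these, 1967 genes were higher (13.9% of genes tested) and 1724 were lower (12.1%) in cerebellum-rich tumours. The sizes of change were uneven: 818 genes were higher by 2-fold or more (5.76%) and 22 were lower by 2-fold or more (0.155%). The number of lower genes depends on the scaling. With library totals alone as the scale, 2075 genes were higher and 870 lower. Within the earlier titles 1742 genes were higher and 916 lower, and within the later titles 799 and 274. The p-values speak of an association with a split that was read from these same libraries, not of an effect of a treatment. Leaving out TAM+ replicate 17, a cerebellum-rich tumour, left 1073 lower genes. Without TAM+ replicate 14 the counts were 1720 higher and 1158 lower, and without both that library and TAM- replicate 16 they were 2202 and 1679.

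The split of the 20 rich and 20 poor tumours left 20 genes (0.141% of genes tested) with no overlap of CPM between the ends, all of them higher in cerebellum-rich tumours. They included Aldoc, Car8, Cnnm1, Crtam, Dpp10, Gad1, Gad2, Gng13, Kcnip4, Krt222, Nefh, Nrsn2, Ppp1r17, Rit2, Scn1a, Slc1a6, Slc32a1, Spock3 and Tfap2b. Those outside the naming rule were picked after their values were seen. No gene was lower in every cerebellum-rich tumour than in every cerebellum-poor tumour.

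Purkinje cell genes other than the score genes were higher in cerebellum-rich tumours in 18 of 20 cases, against 13.9% of all genes tested. Their median log2 fold change was 3.53, against a median of -0.04 over all genes tested. The 18 include Car8, a carbonic anhydrase-like protein that binds the IP3 receptor, and Itpr1, that receptor itself, whose log2 fold change was 3.50. Car8 had 16.1, 164 and 1809 CPM (lowest, median, highest) in cerebellum-rich tumours, against 0.273, 4.29 and 13.7 CPM in cerebellum-poor tumours. The lowest cerebellum-rich tumour lay above the highest cerebellum-poor one. The log2 fold change of Car8 was 5.82 ± 0.43 (SE, edgeR adjusted p = 1.34e-13). Ppp1r17, a phosphatase inhibitor of Purkinje cells, had 1.04, 22.4 and 249 CPM in cerebellum-rich tumours, and in cerebellum-poor tumours 0, 0 and 0.721 CPM, with 11 of the 20 at 0. Its log2 fold change, 7.60 ± 0.54 (edgeR adjusted p = 6.64e-14), was the largest among the 104 genes chosen by the naming rule. Ppp1r17, Gng13 and Nefh were too low in every cerebellum-poor tumour to pass the filter on low counts except through the cerebellum-rich ones. Such members could enter the count of 18 only by being high at the rich end.

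Slc1a6, the Purkinje glutamate transporter EAAT4, had 3.60, 26.8 and 146 CPM in cerebellum-rich tumours, against 0.238, 0.768 and 2.88 CPM in cerebellum-poor tumours. The ends did not overlap, and the log2 fold change was 4.91 ± 0.34 (edgeR adjusted p = 4.34e-14). Gng13, a G-protein gamma subunit, rose by 6.60 ± 0.48 on the log2 scale (edgeR adjusted p = 1.07e-13), and 10 of 20 cerebellum-poor tumours had no read of it. As with Ppp1r17, its call describes the split, since it passed the filter only through the cerebellum-rich tumours. Smaller changes were called for Homer3, a scaffold of glutamate receptors (0.92), for Dner, a Notch ligand of Purkinje cells (0.71), and for Rora, a nuclear receptor that Purkinje cells need to mature (1.71). List members outside the naming rule, such as these, were picked after their values were seen. Transcription factors of the lineage were not of 1 kind. Lhx5 was higher by 5.96 and Skor2 by 6.34, whereas Lhx1 (-0.01, edgeR adjusted p = 0.97) and Foxp2 (-0.31, adjusted p = 0.13) did not pass the test.

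Upstream sequence of a pair of these genes is shown for the core element of ROR nuclear receptors, the family of Rora, because Rora and other Purkinje genes were higher together. The sequences are RefSeq's, on GRCm38.p6, and the motif AGGTCA was searched on both strands in the 250 bases before each start. The capitals mark it, here as its reverse complement TGACCT. Pcp4 lies on the plus strand at chr16:96467415-96467474 and Homer3 on the plus strand at chr8:70282815-70282874.
Pcp4: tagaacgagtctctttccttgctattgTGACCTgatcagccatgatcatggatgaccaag
Homer3: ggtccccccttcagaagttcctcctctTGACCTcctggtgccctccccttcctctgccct
The motif was present in 4 of the 14 windows of Purkinje list genes (28.57%), which belong to 10 genes, and in 14.02% of all 32851 windows. A match is a string of letters and not evidence of binding. The motifs were picked after the values were seen, and Pcp4, a calmodulin-binding protein of Purkinje cells, and Homer3 were shown because they hold one.

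Inhibitory interneuron genes were higher in cerebellum-rich tumours for 11 of 11 tested members of the list of 12, against 13.9% of all genes tested. Their median log2 fold change was 4.91. Sst did not pass the filter on low counts. Slc32a1 and Slc6a5 were too low in every cerebellum-poor tumour to pass it except through the cerebellum-rich ones. Such members could enter the count only by being high at the rich end. Gad1, which makes GABA from glutamate, had 12.3, 109.7 and 727 CPM in cerebellum-rich tumours, against 0, 1.90 and 5.99 CPM in cerebellum-poor tumours. The ends did not overlap, and the log2 fold change was 5.97 ± 0.40 (edgeR adjusted p = 3.89e-14). Slc32a1, the vesicular transporter of GABA and glycine, had 2.20, 20.8 and 121 CPM in cerebellum-rich tumours, against 0, 0.123 and 1.20 CPM in cerebellum-poor tumours, 9 of which were at 0. Its ends did not overlap either (log2 fold change 6.83 ± 0.45, edgeR adjusted p = 3.89e-14). Slc6a5, the glycine transporter GlyT2, rose by 6.36 ± 0.52 (adjusted p = 1.68e-12) and Penk, the enkephalin precursor, by 4.91 ± 0.46 (adjusted p = 5.25e-11). Tfap2b, a transcription factor of GABAergic precursors in the cerebellum, rose by 6.29 ± 0.45 (adjusted p = 5.77e-14). Tfap2b, which is not on the list, also passed the filter on low counts only through the cerebellum-rich tumours. A smaller change was called for the receptor tyrosine kinase Kit (1.69).

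Purkinje cells are inhibitory neurons too, so Gad1 and Slc32a1 are not particular to interneurons. Gad1 and Slc32a1, the pair that makes and packs GABA, are shown with the E-box CACCTG in their upstream windows, since basic helix-loop-helix factors bind E-boxes in this lineage. The motif was searched on both strands, capitals mark it, and both genes lie on the plus strand of GRCm38.p6, at chr2:70561998-70562057 and chr2:158610508-158610557.
Gad1: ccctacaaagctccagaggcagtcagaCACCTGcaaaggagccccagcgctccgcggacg
Slc32a1: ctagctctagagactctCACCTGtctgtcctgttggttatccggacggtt
CACCTG was present in 3 of the 14 windows of interneuron genes (21.43%), which belong to 10 genes, and in 17.22% of all windows. Letters of CACCTG and AGGTCA can overlap at their edges.

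**Figure D2:**
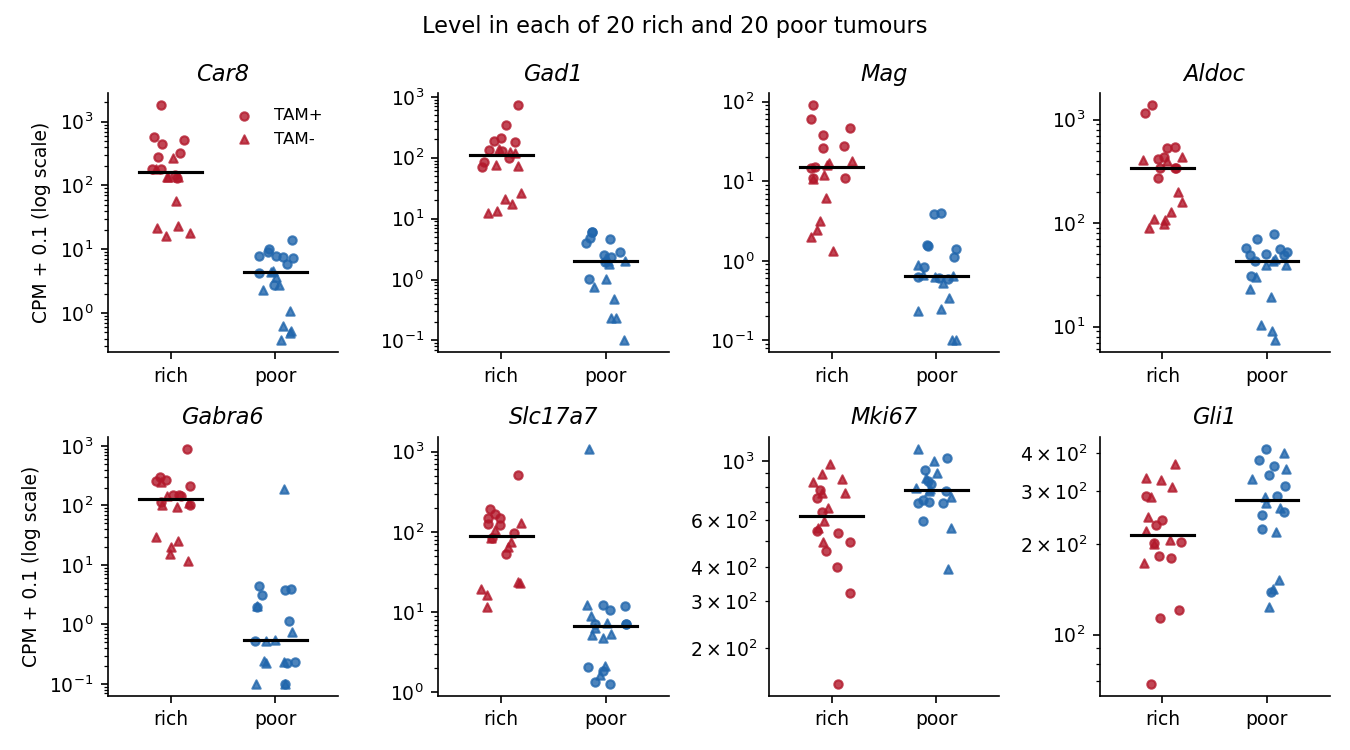
CPM plus 0.1 (log axis) of 8 genes in each of the 20 cerebellum-rich and 20 cerebellum-poor tumours, with circles for TAM+, triangles for TAM- and a line at the median of each end. Car8, Gad1 and Aldoc do not overlap between the ends, 1 cerebellum-poor TAM- tumour stands high for Gabra6 and Slc17a7, and Mki67 and Gli1 overlap widely.

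Mature oligodendrocyte genes other than Mog and Mobp were higher for 16 of 18 tested members of the list of 20, against 13.9% of all genes tested. Their median log2 fold change was 1.83. Mag, a myelin adhesion protein, had 1.22, 14.8 and 89.8 CPM in cerebellum-rich tumours, against 0, 0.537 and 3.84 CPM in cerebellum-poor tumours. All 20 cerebellum-rich tumours lay above the cerebellum-poor median, although the ranges overlapped. Its log2 fold change was 4.54 ± 0.39 (edgeR adjusted p = 8.26e-12). Hapln2, a matrix protein of nodes of Ranvier, rose by 5.07 ± 0.49 (adjusted p = 1.29e-10) and Cnp, a myelin enzyme, by 1.71 ± 0.21 (adjusted p = 3.86e-08). Hapln2 reached at most 0.877 CPM in cerebellum-poor tumours. It passed the filter on low counts, and entered the count of 16, only through the cerebellum-rich ones. Myrf, the transcription factor that turns on myelin genes, was higher by 2.61. Sox10 (0.25) and Ppp1r14a (0.29) did not pass. In the oligodendrocyte progenitor list 1 of 10 genes was called, Enpp6, a marker of newly forming oligodendrocytes, at 1.89 ± 0.35 (adjusted p = 9.72e-05), and 2 were called without TAM+ replicate 12. The count of 1 in 10 is under the share of all genes, 13.9%, and is no result about that list. Pdgfra, the growth factor receptor of progenitors, stood at -0.24 and Cspg4 at -0.07, neither past the threshold.

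The Purkinje and oligodendrocyte parts of the score gave nearly the same ends. Ranked by Pcp2 and Calb1 alone, 19 of 20 cerebellum-rich and 18 of 20 cerebellum-poor tumours were the same, and ranked by Mog and Mobp alone, 18 of 20 and 20 of 20. With ends chosen by the Purkinje pair, 1752 of 14202 genes were higher (12.3%) and 1066 lower (7.51%), and the oligodendrocyte list was called higher for 16 of 18 genes. With ends chosen by the oligodendrocyte pair, 1970 of 14204 genes were higher (13.9%) and 1498 lower (10.5%), and the Purkinje list was called for 18 of 20. These ends share most of their tumours with the main ones.

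Astrocyte and Bergmann glia genes were higher for 15 of 16 genes, against 13.9% of all genes tested, with a median log2 fold change of 1.29. Aldoc, also called zebrin II, an enzyme of glycolysis found in Purkinje cells as well as astroglia, had 89.8, 341 and 1377 CPM in cerebellum-rich tumours, against 7.25, 43.1 and 79.2 CPM in cerebellum-poor tumours. The ends did not overlap, and the log2 fold change was 3.20 ± 0.27 (edgeR adjusted p = 3e-12). Gjb6, a gap junction protein of astrocytes, rose by 2.60 ± 0.27 (adjusted p = 7.68e-10). Sparcl1, a secreted protein of astrocytes, had 298, 570 and 1407 CPM in cerebellum-rich tumours and 86.1, 208 and 641 CPM in cerebellum-poor tumours, a log2 fold change of 1.47 ± 0.19 (adjusted p = 1.01e-07). Gdf10, a growth factor gene of Bergmann glia, was higher by 1.96 and the glutamate transporter gene Slc1a3 by 0.75. Slc1a2, the other main astrocyte glutamate transporter, did not pass (0.21). Dao, a D-amino acid oxidase of cerebellar astroglia, rose by 6.95 ± 0.59 (adjusted p = 5.79e-12), and 16 of 20 cerebellum-poor tumours had no read of it. Dao passed the filter on low counts only through the cerebellum-rich tumours, so its call describes the split.

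Mature granule neuron genes were higher for 12 of 16 members (median log2 fold change 1.74), against 13.9% of all genes tested. The values of 1 cerebellum-poor tumour bear on that count. Gabra6, a GABA-A receptor subunit found almost only in granule neurons, had 11.4, 130 and 898 CPM in cerebellum-rich tumours, against 0, 0.437 and 193 CPM in cerebellum-poor tumours. The 193 CPM belong to TAM- replicate 16, and the next cerebellum-poor tumour had 4.33 CPM. The log2 fold change of Gabra6 was 4.22 ± 0.91 (edgeR adjusted p = 0.000738) with that library and 7.26 without it (adjusted p = 4.35e-14). Slc17a7, the vesicular glutamate transporter VGLUT1, was not called with it (1.69, adjusted p = 0.23). In that same library the granule list summed to 6201 CPM, where the other cerebellum-poor tumours ran from 363 to 883 CPM, while the Purkinje list stood at 573 CPM, within the cerebellum-poor range. Without TAM- replicate 16 the list was called higher for 15 of 16 genes, with a median of 2.77.

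Genes of early granule neurons, which have left the cell cycle and still migrate, showed no common direction. Of 14 genes, 1 was higher, Neurod2 (0.84 ± 0.30, edgeR adjusted p = 0.0378), and 1 was lower, Plxnb2 (-0.28 ± 0.10, adjusted p = 0.0345), with a median of 0.03. Of 40 fits that left out 1 tumour each, Neurod2 lost the call in 11 and Plxnb2 in 15. Dcx stood at -0.27 and Tubb3 at 0.06, neither past the threshold. Neither the count of higher nor that of lower genes exceeds its share of all genes tested, 13.9% and 12.1%.

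**Figure D3:**
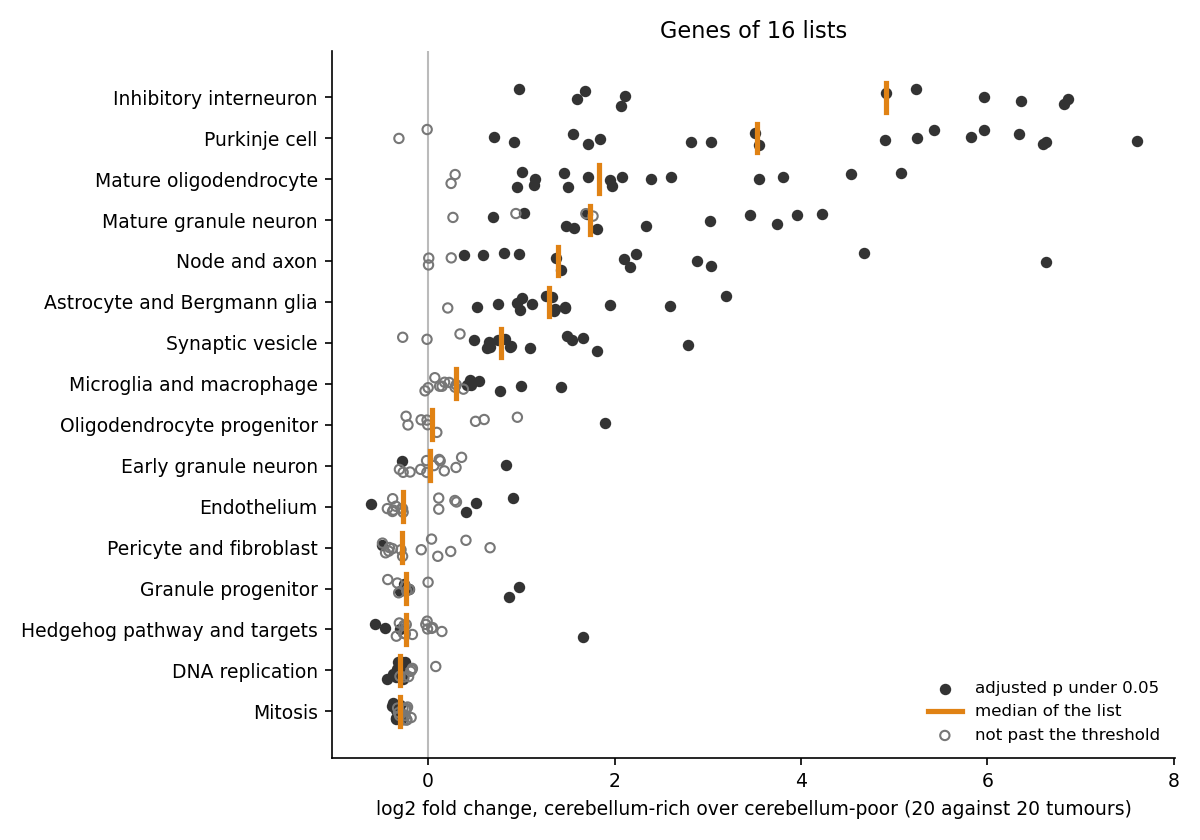
Log2 fold change, cerebellum-rich over cerebellum-poor, of each tested gene in 16 lists, with filled points past the adjusted threshold, open points not past it and a bar at each list's median. The Purkinje, interneuron, mature oligodendrocyte and astrocyte lists have medians from 1.29 to 4.91, and the replication and mitosis lists both have a median of -0.30.

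Genes that carry impulses and release transmitter moved with the cell type lists. The lists share members: Nefh is also in the Purkinje list, and Snap25, of the synaptic vesicle list, is also in the mature granule neuron list. In the list of nodes and axons 13 of 16 genes were higher, with a median of 1.40. The share of all genes tested to set beside this list and the synaptic vesicle list is 13.9%. Scn1a, a sodium channel of fast-firing inhibitory neurons, had 9.56, 36.6 and 222 CPM in cerebellum-rich tumours, against 1.91, 4.68 and 9.27 CPM in cerebellum-poor tumours. The ends did not overlap, and the log2 fold change was 3.03 ± 0.30 (edgeR adjusted p = 1.77e-10). Scn4b, a sodium channel subunit tied to fast firing, rose by 4.68 ± 0.48 (adjusted p = 7.55e-10), and Nefh, the heavy neurofilament chain, by 6.63 ± 0.58 (adjusted p = 1.09e-11). Nefh reached at most 0.420 CPM in cerebellum-poor tumours. It passed the filter on low counts, and entered the count of 13, only through the cerebellum-rich ones. In the synaptic vesicle list 15 of 18 genes were higher, with a median of 0.79, and 10 of 18 without TAM+ replicate 14. Syt2, a calcium sensor of fast release, rose by 2.79 ± 0.37 (adjusted p = 2.45e-07) and Rims1, a scaffold of the active zone, by 1.66 ± 0.31 (adjusted p = 0.000132).

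Potassium channel genes, which the study's title names, were counted as all genes with a Kcn symbol. Of 97 such genes 62 were tested, and 23 were higher and 4 lower in cerebellum-rich tumours, with a median log2 fold change of 0.41. Over all genes tested 13.9% were higher and 12.1% lower, so the lower count is under that share. Kcnb2 itself, a delayed rectifier subunit, had 2.72, 6.66 and 10.1 CPM in cerebellum-rich tumours, against 2.83, 7.13 and 13.9 CPM in cerebellum-poor tumours. The ends overlapped almost fully, and the log2 fold change of -0.23 ± 0.18 did not pass (edgeR adjusted p = 0.347). Kcnip4, a partner of Kv4 channels, had 1.68, 15.6 and 133 CPM in cerebellum-rich tumours, against 0, 0.614 and 1.63 CPM in cerebellum-poor tumours. Its ends did not overlap (log2 fold change 5.10 ± 0.40, edgeR adjusted p = 5.59e-13). Kcnc4, a Kv3 channel of fast-firing neurons, rose by 4.00 ± 0.38 (adjusted p = 8.87e-11), and Kcng4, a silent subunit that joins Kv2 channels, by 3.81 ± 0.38 (adjusted p = 3.81e-10). Kcnh1 rose by 2.88 ± 0.39, Kcna6 by 2.16 ± 0.26 and Kcnab3, a beta subunit, by 1.64 ± 0.25 (edgeR adjusted p from 4.6e-08 to 4.86e-06). The 4 lower genes, outside the naming rule and given for their small number, were Kcnn4 (-1.16), Kcnq1 (-1.01), Kcng2 (-0.65) and Kcnh5 (-0.53).

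Cell cycle genes were lower in cerebellum-rich tumours by small amounts. In the DNA replication list 13 of 20 genes were lower and none higher, with a median of -0.30, where 12.1% of all genes tested were lower. Mcm7, a subunit of the replicative helicase, had 135, 344 and 425 CPM in cerebellum-rich tumours, against 279, 406 and 557 CPM in cerebellum-poor tumours. The ranges overlapped, and 18 of 20 cerebellum-rich tumours lay under the cerebellum-poor median. Its log2 fold change was -0.30 ± 0.09 (edgeR adjusted p = 0.00949). Cdt1, a licensing factor, stood at -0.44 ± 0.11 (adjusted p = 0.00317) and Rpa2, which binds single-stranded DNA, at -0.34 ± 0.09 (adjusted p = 0.00364).

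In the mitosis list 10 of 22 genes were lower and none higher, with a median of -0.30, where 12.1% of all genes tested were lower. Mki67, a marker of dividing cells, had 147, 620 and 969 CPM in cerebellum-rich tumours, against 393, 776 and 1108 CPM in cerebellum-poor tumours. The ends overlapped, with 15 of 20 cerebellum-rich tumours under the cerebellum-poor median, and the log2 fold change was -0.39 ± 0.13 (edgeR adjusted p = 0.0283). These counts rest on the choice of tumours and scale. The number of lower mitosis genes was 3 without TAM+ replicate 17 and 16 without TAM- replicate 16. It was 2 with library totals as the scale, 0 with ends chosen by Pcp2 and Calb1, 10 within the earlier titles and 0 within the later ones. With the log2 score as a slope over all 59 tumours it was 22. Counts over all genes moved as well. Lower genes numbered 1073 without TAM+ replicate 17, 2155 without TAM- replicate 16 and 870 with library totals. They numbered 1066 with the Pcp2 and Calb1 ends, 916 within the earlier titles, 274 within the later ones and 2437 with the slope. Whether the mitosis list moved beyond those totals was not tested. The replication list gave 8 without TAM+ replicate 13 and 16 without TAM- replicate 16, 7 with library totals and 5 with the Pcp2 and Calb1 ends. The median of either list kept its sign under all 3 scales tried.

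Of 17 Hedgehog pathway members and targets 1 was higher and 3 were lower, where 13.9% of all genes tested were higher and 12.1% lower. Their median was -0.23, with 13 values under 0. The number of lower genes was 6 without TAM- replicate 16, 2 without TAM+ replicate 14 and 9 with the log2 score as a slope over 59 tumours. Gli1, the transcription factor that Hedgehog signalling induces, had 68.5, 214 and 370 CPM in cerebellum-rich tumours, against 124, 280 and 415 CPM in cerebellum-poor tumours. The ranges overlapped, and the log2 fold change of -0.34 ± 0.16 did not pass (edgeR adjusted p = 0.11). Sfrp1, a secreted target, stood at -0.46 ± 0.15 (adjusted p = 0.022). Boc, a co-receptor, stood at -0.30 ± 0.11 (adjusted p = 0.0356) and lost the call in 15 of 40 fits that left out 1 tumour. Cdon, another co-receptor, was higher by 1.66 ± 0.45 (adjusted p = 0.00666), with 0.745, 7.97 and 39.0 CPM in cerebellum-rich and 0.558, 1.34 and 14.4 CPM in cerebellum-poor tumours. Ptch1, Smo and Sufu did not pass.

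The granule progenitor list had 2 of 12 genes higher and 3 lower, where 13.9% of all genes tested were higher and 12.1% lower. Its median was -0.24. The number of lower genes was 1 without TAM+ replicate 14, 5 without TAM- replicate 16 and 7 with the log2 score as a slope over 59 tumours. Atoh1, which sets progenitor identity, had 28.8, 192 and 378 CPM in cerebellum-rich tumours, against 107, 238 and 434 CPM in cerebellum-poor tumours, and was not called (-0.43 ± 0.20, edgeR adjusted p = 0.104). Tcf3, a partner of Atoh1, stood at -0.26 ± 0.08 (adjusted p = 0.0143). Rgs16 was higher by 0.87 ± 0.24 (adjusted p = 0.0073). Boc, 1 of the 3 lower genes of this list, and Mycn are also in the Hedgehog list.

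Lists of cells that cerebellum shares with other tissue showed smaller counts. Over all genes tested 13.9% were higher and 12.1% lower. The endothelial, pericyte, interferon and immediate early counts lie near these shares and are no result about those lists. Microglia and macrophage genes were higher for 7 of 17, with a median of 0.30. The contrast within TAM+ tumours called 1 of the 17, where it called 16.3% of all genes higher. The median over tumours of the list's mean log2 CPM was 4.69 at the rich and 4.38 at the poor end in TAM+. In TAM- these medians were 4.72 and 3.99. Itgam, an integrin of myeloid cells, rose by 1.42 ± 0.27 (edgeR adjusted p = 0.00017) and P2ry12, a receptor of resting microglia, by 1.00 ± 0.20 (adjusted p = 0.000254), whereas Cd68 stood at 0.00 and was not called. Endothelial genes were higher for 3 of 16 and lower for 1, with a median of -0.27. Ly6a was higher by 0.91 ± 0.14 (adjusted p = 7.15e-06) and Tie1, an endothelial receptor, was at -0.62 ± 0.18 (adjusted p = 0.0122). Endothelial genes lower numbered 4 without TAM+ replicate 12. Of 14 pericyte and fibroblast genes 1 was lower, Pdgfrb (-0.49 ± 0.18, adjusted p = 0.0446), which lost the call in 24 of 40 fits that left out 1 tumour. Of 16 chromatin regulators 4 were lower, led by Bcor (-0.48 ± 0.11, adjusted p = 0.00148), of 12 p53 targets 3 were lower, of 14 interferon genes 2 were higher and of 11 immediate early genes 2 were higher. Leaving out 1 tumour moved these counts to between 2 and 6 chromatin regulators, 1 and 3 p53 targets, 1 and 3 interferon genes, and 1 and 4 immediate early genes. Of those 40 fits, Smarca4 among the chromatin regulators lost the call in 28, Bax and Eda2r among the p53 targets in 31 and 30, the interferon gene Stat2 in 15 and the immediate early gene Dusp1 in 18.

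Choroid plexus genes were tested for 6 of 11 members, of which 3 were higher, against 13.9% of all genes tested. The values of 1 tumour stand behind part of that. Enpp2, a lipid enzyme of choroid plexus and oligodendrocytes, rose by 2.07 ± 0.47 (edgeR adjusted p = 0.00131) and by 1.10 without TAM- replicate 6. Kl was not called without that library (0.50, adjusted p = 0.206). Ttr, the main choroid plexus transcript, did not pass the filter and had a median of 0.497 CPM among cerebellum-rich tumours, against 2574 CPM in TAM- replicate 6 and 497 CPM in TAM- replicate 26. Clic6, an ion channel of choroid plexus, rose by 2.06 ± 0.39 (adjusted p = 0.000145).

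Markers of brainstem with cerebellar nuclei, of forebrain and of T cells were mostly too low to test. The shares to set beside these lists and the red cell list are 13.9% of all genes higher and 12.1% lower. For brainstem and cerebellar nuclei 4 of 13 genes were tested and Nefm and Th were higher, with summed levels of 71.5 to 307 CPM in cerebellum-rich tumours and 74.1 to 392 CPM in cerebellum-poor tumours. For forebrain 4 of 12 were tested and Lhx2 was lower (-0.33 ± 0.12, edgeR adjusted p = 0.0406), a call lost in 27 of 40 fits that left out 1 tumour, with summed levels of 49.6 to 205 CPM in cerebellum-rich tumours and 83.6 to 191 CPM in cerebellum-poor tumours. Of 8 T and NK cell genes 1, Cd4, was tested and was not called, and the summed levels ran from 0.309 to 8.54 CPM in cerebellum-rich tumours and from 1.18 to 9.12 CPM in cerebellum-poor tumours. Of 6 red cell genes 4 were tested and Hbb-bs and Hbb-bt were higher, at 1.12 ± 0.43 and 1.13 ± 0.43 (edgeR adjusted p = 0.0488 and 0.0485). Hbb-bs lost the call in 24 and Hbb-bt in 25 of those 40 fits, and the number of red cell genes called ran from 0 to 4 over them. Summed red cell levels ran from 5.31 to 228 CPM at the rich end and from 1.31 to 228 CPM at the poor end. The part of any of these cells in the other results was not tested.

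The genes with the largest falls were few and varied. Col6a3, a collagen chain, had 1.39, 5.16 and 20.3 CPM in cerebellum-rich tumours, against 2.26, 5.88 and 778 CPM in cerebellum-poor tumours. The 778 CPM are TAM+ replicate 28, and the next cerebellum-poor tumour had 32.3 CPM. Its log2 fold change of -2.62 ± 0.67 (edgeR adjusted p = 0.00397) shrank to -0.57 without that library and was not called (adjusted p = 0.215). Dll3, a Notch ligand of neural precursors, had 1.39, 9.72 and 41.0 CPM in cerebellum-rich tumours, against 2.37, 33.8 and 75.6 CPM in cerebellum-poor tumours. The ranges overlapped, 18 of 20 cerebellum-rich tumours lay under the cerebellum-poor median, and the log2 fold change was -1.63 ± 0.39 (adjusted p = 0.00218). Igf2bp3, an RNA-binding protein of the embryo, stood at -2.23 ± 0.68 (adjusted p = 0.0147) and Megf6 at -1.18 ± 0.25 (adjusted p = 0.000702), both called in all 40 fits that left out 1 tumour. Slit1, an axon guidance cue, stood at -1.97 ± 0.73 (adjusted p = 0.0407) and lost the call in 20 of those fits, and Pdlim3 (-1.43 ± 0.54, adjusted p = 0.0463) in 32. Without TAM+ replicate 27 Slit1 stood at -3.29 (adjusted p = 0.00129), and without TAM+ replicate 19 Pdlim3 stood at -2.18 (adjusted p = 0.00525). Stag3 (-1.33), Tlx3 (-1.32), Mfap4 (-1.25), Stc1 (-1.23), Tpm3-rs7 (-1.22) and Flnc (-1.19) complete the 12, and Tpm3-rs7, a near copy of Tpm3, is uncertain and was not called without TAM+ replicate 13.

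Among the 12 largest rises, 4 have not been described above. Arhgef33 rose by 6.33 ± 0.46 (edgeR adjusted p = 1.07e-13). Nell1, a secreted protein, rose by 6.24 ± 0.54 (adjusted p = 7.27e-12), and 14 of 20 cerebellum-poor tumours had no read of it. Crtam, an adhesion molecule known from T cells, rose by 6.20 ± 0.48 (adjusted p = 5.01e-13) with no overlap of the ends, beside the near absence of T cell genes given above. Iltifb rose by 6.82 ± 0.57 (adjusted p = 3.33e-12), but it is a near-identical copy of Il22 and its reads may be shared between them. Nell1, Crtam and Iltifb were too low in every cerebellum-poor tumour to pass the filter on low counts except through the cerebellum-rich ones.

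The contrast was next taken within each treatment group, which use different tumours. In TAM+ 2313 genes were higher (16.3%) and 1718 lower (12.1%) in cerebellum-rich tumours, and in TAM- 557 were higher (3.92%) and 60 lower (0.423%). The Purkinje list was called higher for 18 of 20 genes in TAM+ and 14 of 20 in TAM-, the interneuron list for 11 of 11 in TAM+ and 8 of 11 in TAM-, and the oligodendrocyte list for 16 of 18 in TAM+ and 9 of 18 in TAM-. The granule neuron list was called for 16 of 16 genes in TAM+ and 0 of 16 in TAM-, where TAM- replicate 16 lies at the poor end. Mitosis genes were lower for 12 of 22 in TAM+ and 0 of 22 in TAM-, with medians of -0.43 and -0.13. These counts do not show that the treatment groups differ, and the test of the difference passed for 26 genes. For 25 the signed log2 fold change was higher in TAM+ than in TAM- (0.176% of genes tested), and for 1, Sh3kbp1, it was lower (0.00704%). For some, such as Shb and Plvap, the changes had opposite signs. None of the mitosis or Hedgehog genes was among them.

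**Figure D4:**
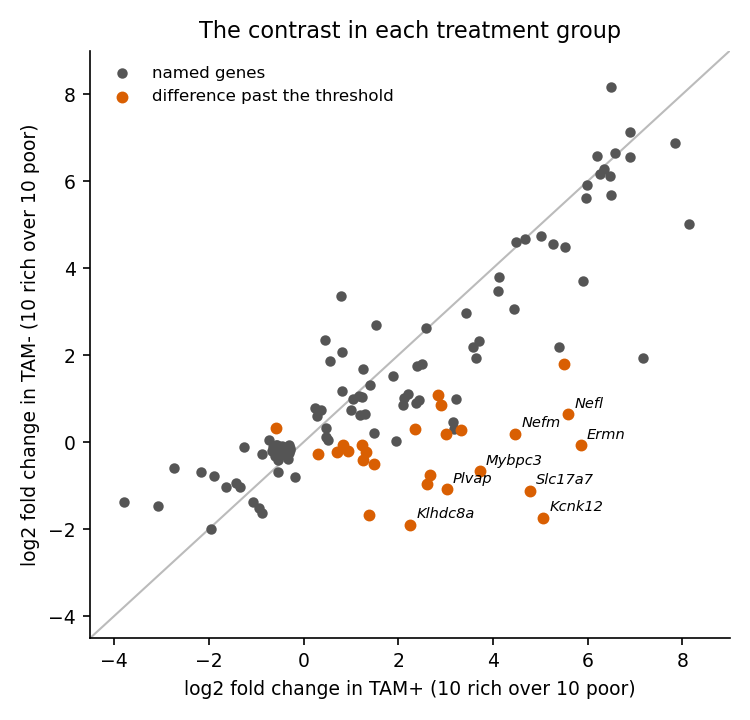
Log2 fold change, cerebellum-rich over cerebellum-poor, in TAM+ (x axis) and in TAM- (y axis), for the named genes in grey and the 26 genes whose difference passed the threshold in orange, with the line of equal change. Car8 and Gad1 lie near the line (5.97 and 5.99 in TAM+, 5.61 and 5.92 in TAM-), and Kcnk12, Slc17a7 and Ermn lie far under it.

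The number of such genes depended on a pair of libraries. Kcnk12, a potassium channel, had log2 fold changes of 5.06 in TAM+ and -1.74 in TAM-, and their difference of 6.79 became 1.56 without TAM- replicate 16. For Slc17a7 the difference of 5.90 became 1.59, and for Ermn, a cytoskeletal protein of myelinating cells, 5.92 became 0.91, neither called. Without TAM- replicate 16 the difference was called for 4 genes with a higher signed log2 fold change in TAM+, without TAM+ replicate 14 for 1 and without both for 2. Shb, a signalling adaptor, was called under each of these, with a difference of 3.07 in all tumours and 2.97 to 3.14 without them. Its own log2 fold change was 1.39 in TAM+ and -1.68 in TAM-.

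Cerebellum-rich tumours also differed among themselves. TAM+ replicate 14, a cerebellum-rich tumour, had the highest Car8 (1809 CPM, against 573 CPM in the next), Gad1 and Gabra6, and the lowest Mki67 (147 CPM) and Gli1 (68.5 CPM). Its mitosis list summed to 932 CPM, where the other cerebellum-rich tumours ran from 2353 to 4976 CPM. Among the 10 TAM- tumours at the rich end the scores left a gap between 55.1 and 165 CPM.

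The same genes were then followed in tumours that neither end used. In the 19 tumours between the ends, the slope of each gene on the log2 score was tested with treatment as covariate, in 13617 genes. There 11 genes had a rising slope past the threshold (0.0808%) and none a falling one, with 272 (2%) and 173 (1.27%) at an unadjusted p under 0.05 (edgeR). They included Arhgef33, Car8, Cbln3, Chn2, Gabra6, Ppp1r17, Slc1a6, Snhg11, St8sia5 and Tmem130. Car8 rose by 0.83 ± 0.16 on the log2 scale per doubling of the score plus 1 CPM (edgeR adjusted p = 0.0346), and Ppp1r17 by 1.31 ± 0.24 (adjusted p = 0.0283). Of the 818 genes higher by 2-fold or more between the ends, 639 had a slope here and 544 of these were positive (85.1%, against 49.97% over all genes tested between the ends that had a slope), with a median slope of 0.18. Of all 13617 genes with a slope 50% were positive. Astrocyte genes were positive for 16 of 16 and Purkinje genes for 15 of 16 tested, while interferon genes were negative for 14 of 14 with none called. Mitosis genes had positive slopes for 14 of 22 and a median of 0.01, unlike the ends. The scores between the ends ran from 18.1 to 141.6 CPM in TAM+ and from 1.08 to 13.4 CPM in TAM-. Many of those TAM- scores rest on few reads, which limits this comparison with the ends.

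The 10 tumours of the other model give a further view. In these, SmoM2, a Smoothened protein that is always active, is expressed in granule progenitors under Math1-Cre. They come from a separate table, so only slopes within it were used. Their scores ran from 206 to 737 CPM in the 3 Kcnb2 knockout tumours and from 5.21 to 566 CPM in the 7 tumours labelled wild-type. For the library labelled Kcnb2_WT replicate 3 the sample title has the form of the knockout titles, while its column name and genotype label do not. Kcnb2 stood at 8.44 CPM in that library, against 10.0 to 13.7 CPM in the 3 knockout libraries and 22.5 to 47.0 CPM in the other 6 libraries labelled wild-type, so its level goes against its label. The covariates were the genotype label and whether the title starts with a number or with letters, which does not adjust for the doubt about that library. With them, 324 of 20575 genes had a rising slope (1.57%) and 5 a falling one (0.0243%), and 48.5% of all slopes were positive. Of the 818 genes, 784 had a slope and 757 were positive (96.6%, against 50.55% over the genes tested between the Lazy Piggy ends that had a slope). The Purkinje list was called rising for 14 of 20 genes, with a median slope of 0.65, the interneuron list for 7 of 12 (0.70), the oligodendrocyte list for 11 of 20 (0.54) and the granule neuron list for 8 of 16 (0.54). Car8 rose by 0.85 ± 0.11 per doubling (edgeR adjusted p = 0.00651) and Mag by 1.12 ± 0.12 (adjusted p = 0.00223). Replication genes had negative slopes for 20 of 20 and mitosis genes for 21 of 22, with medians of -0.06 and -0.05, and none passed the test. Interferon genes had positive slopes for 15 of 16, with a median of 0.29 and none called. Without Kcnb2_WT replicate 3, 348 genes had a rising and 9 a falling slope, the Purkinje list was called rising for 15 of 20 genes, the interneuron list for 7 of 12, the oligodendrocyte list for 11 of 20 and the granule neuron list for 8 of 16. Car8 then rose by 0.88 (adjusted p = 0.00769) and Mag by 1.08 (adjusted p = 0.00519), replication genes were negative for 20 of 20 and mitosis genes for 20 of 22, and 743 of 783 of the 2-fold higher genes were positive (94.9%, against 49.5% over all genes). Of the 1724 genes lower between the Lazy Piggy ends, 1470 of 1683 had negative slopes in SmoM2 tumours (1445 without Kcnb2_WT replicate 3) and 1167 of 1708 in the tumours between the ends.

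**Figure D5:**
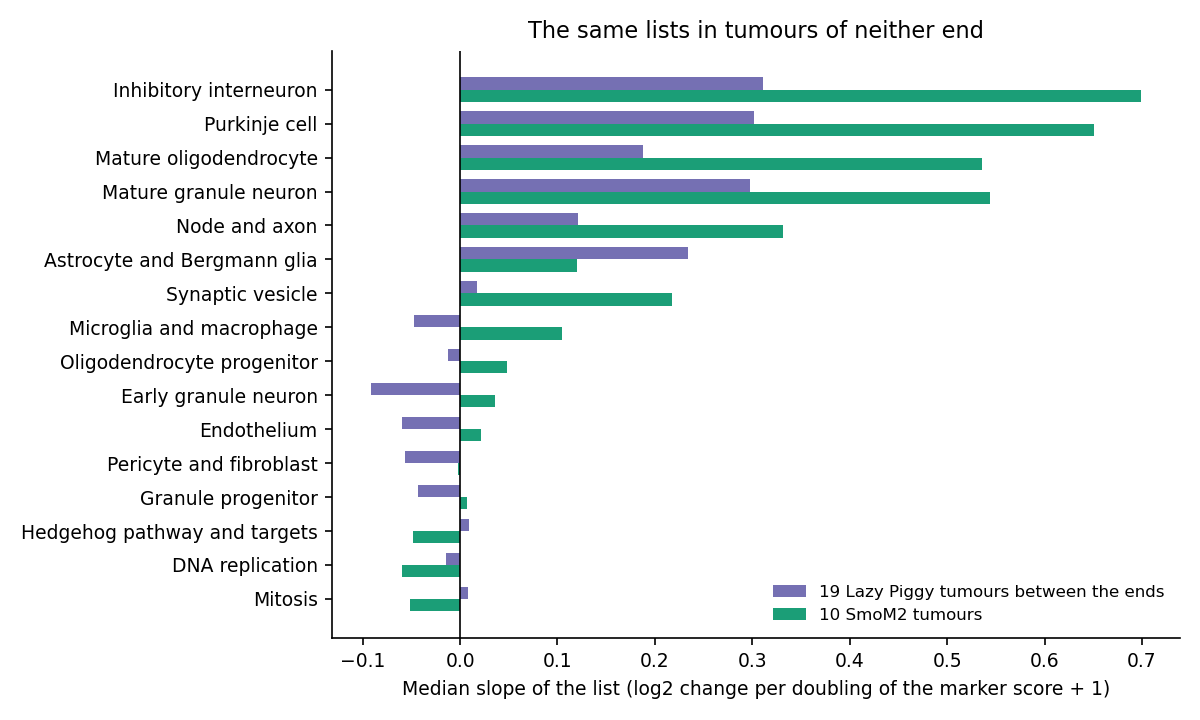
Median slope of each list, in log2 change per doubling of the marker score plus 1 CPM, in the 19 Lazy Piggy tumours between the ends and in the 10 SmoM2 tumours. The Purkinje, interneuron, mature granule neuron, mature oligodendrocyte and astrocyte lists have medians from 0.12 to 0.70 in both sets, and the mitosis list lies within 0.06 of 0 in both.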

How the data were processed

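Poly(A) RNA of 70 mouse medulloblastomas was sequenced, and per the labels' protocols RNA was taken with an RNeasy kit and libraries made with a TruSeq RNA kit. The authors deposited whole-number read counts per gene in 2 tables, 60 Lazy Piggy and 10 SmoM2 tumours. The submitters' processing notes name STAR 2.5.4b and mm9; for the counter, annotation and strand setting the sources used here give nothing. Gene symbols were matched by Ensembl ID to a GENCODE name table, for 32882 of 37964 rows of the Lazy Piggy table and 53274 of 53379 of the SmoM2 table. Construct rows (10, with 0.00120% of Lazy Piggy counts) were left out. One Lazy Piggy tumour without a treatment label entered no comparison.

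CPM is a gene's count divided by the library's gene counts, times 1000000. Genes were kept by edgeR's filterByExpr with a minimum count of 10, scaled by TMM and tested by edgeR 4.0.16 quasi-likelihood (R 4.3.3) with treatment as covariate, and p-values were Benjamini-Hochberg adjusted over all genes tested at a threshold of 0.05. The standard error (SE) is the log2 fold change divided by the root of F. The filter used the groups of end and treatment, so genes near 0 at the poor end could pass it only through the rich end. Ppp1r17, Gng13, Slc32a1, Slc6a5, Tfap2b, Dao, Nell1, Hapln2, Nefh, Crtam and Iltifb are among them, and their calls describe the split. The 4 score genes were left out of every count. Slopes used log2 of the score plus 1 CPM. The fits were tested on simulated counts.

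Named genes were Kcnb2, Gli1, Mki67 and Atoh1, the 12 largest called changes each way among genes whose mean log2 CPM reached 1, up to 4 members of each list and 6 potassium channel genes by smallest p; where no member of a list passed, its 2 highest members were taken. The members and the lists were chosen with earlier results of these data known. Alternatives were other scalings, DESeq2 1.42.0, other filters, other numbers of tumours at each end, other scores and covariates, each treatment group or title period alone, and each tumour left out in turn. Leaving out TAM+ replicate 14 and TAM- replicate 16 together, the fits of the treatment difference without either, and the SmoM2 fit without Kcnb2_WT replicate 3 were chosen after seeing the data.

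Replicate numbers were given in accession order and name tumours only. Sex was read from Y-linked genes. Mitochondrial genes are not among the rows counted. Some genes that met the naming rule are not reported here.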

Additional observations from a re-analysis of the deposited data

Results flagged for a closer look

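The rich-poor contrast differed between TAM+ and TAM- tumours for 26 genes by the test of the difference itself (edgeR, adjusted p under 0.05). In log2 units, the TAM+ change minus the TAM- change was 6.79 for Kcnk12, 5.92 for Ermn, 5.90 for Slc17a7, 4.94 for Nefl, 4.38 for Mybpc3, 4.27 for Nefm, 4.15 for Klhdc8a and 4.10 for Plvap. It was 3.72 for Pvalb, 3.57 for Aqp6, 3.42 for Tmem266, 3.07 for Shb, 3.06 for Shtn1, 2.83 for Jakmip3, 2.05 for Parm1, 2.04 for Clec2l, 1.99 for Ankrd37, 1.76 for Mbp and 1.67 for Rab15. It was 1.54 for Bnip3, 1.31 for Fam213b, 1.14 for Tppp3, 0.93 for Rragd, 0.90 for Errfi1, 0.58 for Acsl4 and -0.90 for Sh3kbp1. Of these, Shb alone was called without TAM- replicate 16, without TAM+ replicate 14 and without both (adjusted p 0.00788, 0.0271 and 0.020).

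Single tumours stood far from the others of their end and treatment group, by a test that chance passes in about 1 of 20 groups. The test was run for each of 26 lists at each end of each treatment group, so chance alone would give several such flags. List values here are means of log2 CPM over the tested genes of a list. TAM+ replicate 14, cerebellum-rich, had list means of 7.64 for Purkinje cell, 9.07 for mature granule neuron, 8.78 for synaptic vesicle and 7.86 for node and axon genes, all high. The score of TAM+ replicate 14, 1937 CPM, set its end and is given as a description only. The list means of that tumour were low for granule progenitor (6.59), Hedgehog (6.18), DNA replication (5.57) and mitosis genes (5.13).

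TAM- replicate 16, cerebellum-poor, was high for mature granule neuron (7.99), potassium channel (3.68) and immediate early genes (4.76), and low for mitosis genes (6.69). Among the other cerebellum-poor tumours, TAM+ replicate 5 was low for Hedgehog (6.64) and high for astrocyte genes (7.06). TAM+ replicate 11 was high for synaptic vesicle genes (6.77). TAM+ replicate 24 (1.31) and TAM- replicate 14 (0.89) were low for choroid plexus genes. Among cerebellum-rich tumours TAM- replicate 11 was high for interferon genes (2.90).

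The Lazy Piggy tumour without a treatment label, in no comparison, had a score of 956 CPM.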

How the results depend on the processing

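Direction and call were compared for 104 named genes, or for fewer where some had no value under a setting. Genes without a value are not counted as lost, so the losses there are not out of 104. Direction and call stayed the same for 29 genes in TAM- alone, 78 with a mean of 50 counts or more and 94 with the slope over 59 tumours. The call was lost for 3 with DESeq2 size factors, 4 with the DESeq2 test, 16 with library totals, 12 with no low-count filter, 8 with a mean of 50 counts or more, 19 with ends by Pcp2 and Calb1, 5 with ends by Mog and Mobp, 2 with title period, 3 with sex and 9 with no covariate. It was lost for 11 with 7 and for 17 with 14 tumours per treatment group at each end, for 2 with the slope over 59 tumours, for 15 without TAM+ replicate 14 and for 3 without that library and TAM- replicate 16. In fits on part of the tumours it was lost for 59 in TAM- alone, 30 in TAM+ alone, 50 in later titles and 32 in earlier ones. Signs turned for Gli1 in TAM- tumours alone (0.072) and for Kcnb2 in later titles alone (0.062), neither called in all tumours. Against 1724 lower genes in all 40 tumours there were 870 with library totals (all 870 among the 1724), 1132 with 14 tumours per treatment group at each end (1020 shared), 1066 with ends by Pcp2 and Calb1 (1035 shared), 938 in TAM+ alone (710 shared), 44 in TAM- alone (33 shared), 916 in earlier titles (524 shared) and 274 in later ones (215 shared). Against 1967 higher genes there were 409 in TAM- alone (387 shared) and 799 in later titles (748 shared). Genes higher by 2-fold or more numbered 1757 with no filter, 448 with a mean of 50 counts or more and 273 in TAM- alone, against 818. Genes lower by 2-fold or more numbered 124 with no filter, 13 with a mean of 50 counts, 38 with 7 and 13 with 14 tumours per treatment group at each end, 41 in TAM+ alone, 12 in earlier titles and 40 in later ones, against 22. Without a covariate, slopes between the ends gave 408 rising and 14 falling genes, and in SmoM2 tumours 1005 and 176. Without Kcnb2_WT replicate 3, SmoM2 slopes gave 348 rising and 9 falling genes. The TAM difference gave 4, 1 and 2 genes with a higher signed log2 fold change in TAM+ without TAM- replicate 16, without TAM+ replicate 14 and without both. It gave 0 with a lower one without both. The cause of these moves was not tested; fits on 1 treatment group or title period and stricter filters use fewer tumours or genes.

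Leaving out each tumour in turn gave 1720 to 2430 higher genes, 1073 to 2155 lower genes, 723 to 959 higher by 2-fold or more and 18 (without TAM+ replicate 8) to 41 (without TAM+ replicate 27) lower by 2-fold or more. No paired analysis was possible because replicate numbers follow accession order and tumours were assigned to ends by their score. At these depths many cerebellum-poor libraries held no read of the genes of largest change, so their fitted fold changes depend on the prior count.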

Other observations

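The Lazy Piggy tumour without a treatment label is given by its values only. Its score came from oligodendrocyte genes, with 781 CPM of Mobp and 80.1 CPM of Mog, and from 94.9 CPM of Calb1, while Pcp2 had no read. Summed over the lists it held 6048 CPM of mature oligodendrocyte and 2356 CPM of interneuron genes, above all 59 labelled tumours, and 781 CPM of forebrain genes, where the labelled tumours reached 205 CPM. Mitosis genes summed to 19.6 CPM, against 932 to 5429 CPM in the labelled tumours, and Hedgehog genes to 369 CPM, against 1882 to 7221 CPM.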
